A study of Danio rerio with 12 samples.

Results

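In zebrafish embryos homozygous for a ddx3xb mutation, the RNA content at 4 hours post fertilization (hpf) was compared with that at 2 hpf, to find which genes the mutant embryo still switches on and which RNAs it still clears in this interval. The comparison rests on 4 of the 12 samples of the series, 2 of mutant embryos at 4 hpf and 2 of mutant embryos at 2 hpf. Genes with a value of at least 1 RPKM (reads scaled to gene length and library size) in either group were taken in, which gave 14014 of 33737 gene IDs. The groups used are mutant embryos at 4 hpf and at 2 hpf, labelled Ddx3xb-/Ddx3xb- (ddx3xb-/-), and control embryos at 4 hpf and at 2 hpf, labelled wild type (ddx3xb+/+), with 2 samples each; the mutant and control groups at 6 hpf, also of 2 samples each, serve only as a later reading. All libraries were made from polyadenylated RNA of whole embryos. The sources used here do not give the mutant allele, the mothers' genotype or how many embryos and clutches went into a library.

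Early zebrafish development runs on RNA and protein that the mother placed in the egg. The embryo's own genome is silent during the rapid cleavage divisions and is activated at the midblastula transition, which lies between the earlier and the later of these time points. Maternal factors such as Nanog, Pou5f3 and SoxB1 proteins open and activate the first zygotic genes, and maternal RNAs are then deadenylated and degraded, in part by pathways that need zygotic products. ddx3xb encodes a DEAD-box RNA helicase, a family of ATP-dependent enzymes that remodel RNA and act, among other steps, in translation initiation.

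Each group is represented by 1 deposited value per gene for its 2 samples. No replicate error can be set beside a single gene's value, no p-value is given, and a gene is said here to rise or fall when log2(RPKM + 1) differed by at least 1. That is a statement of size, not of a difference beyond replicate error. Low values fell on a grid that allowed reads to be recovered for 3548 genes, if each group value is a plain mean of 2 libraries. Recovered depths were 39.6 M and 38.8 M reads for mutants at 4 hpf and 62.9 M and 58.1 M reads for mutants at 2 hpf. Over the 1043 recovered genes with 20 to 150 reads at both times, 13.7% differed by at least 1 log2 between 4 and 2 hpf on the plain ratio scale, and the spread of replicates by itself gives 15.2%. Among these 1043 genes, differences of that size were thus no more frequent than the replicate spread gives. Most of them lie outside the 14014 genes taken in, since only 192 recovered genes had at least 1 RPKM at 4 or 2 hpf. The count therefore says little about the genes taken in. Genes without reads at 2 hpf could not enter this count, among them 153 of the genes that rose, so it does not bear on those. Genes with more than 150 reads in any group, or under 20 at 4 or 2 hpf, were left out too. This limits how far the times can differ, while a replicate pair needed only 1 read in each library. The percentages are thus not limited alike. The direction was uneven, with 108 of the 1043 genes higher and 35 lower at 4 hpf. Of the 547 genes that rose, 32 were among the recovered ones, with a median of 1.73 RPKM at 4 hpf, so the replicate spread of the others is not known.

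The label check comes from the targeted gene. ddx3xb stood at 18.8 RPKM in mutants at 4 hpf and 0.70 RPKM in mutants at 2 hpf, against 318 and 325 RPKM in controls at these times. The mutant level was 5.93% of the control level at 4 hpf and 0.21% at 2 hpf, so ddx3xb itself was among the genes that rose in mutants, with a log2 difference of 3.55. Its paralog ddx3xa was at 108 RPKM in mutants at 4 hpf and at 97.4 RPKM at 2 hpf, a difference of 0.15. Markers fixed for the embryo's tissues were read next. Of 6 markers of the enveloping layer, the outer epithelium of the blastula, 5 reached 1 RPKM. The summed level of the 6 was 68.3 RPKM at 4 hpf and 5.22 RPKM at 2 hpf in mutants. Of the sum at 4 hpf grhl3 alone gave 44.4 RPKM, while krt8 differed by only 0.12 log2 between the times. Of 4 markers of the yolk syncytial layer, between embryo and yolk, 3 were matched and 1 reached 1 RPKM. They summed to 29.5 RPKM at 4 hpf and 0.52 RPKM at 2 hpf. The 4 egg markers summed to 586 RPKM at 4 hpf and 579 RPKM at 2 hpf and the 4 germ plasm markers to 232 and 259 RPKM. Of 6 markers of later tissues 4 were matched to an ID, and 0 of them reached 1 RPKM, with MYOD1 listed at 0 at both times and ckma highest at 0.93 RPKM at 4 hpf.

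Between 2 and 4 hpf the mutant embryo gained many RNAs and lost few. Of 14014 genes, 547 (3.9%) rose and 45 (0.321%) fell, while the median difference over all of them was 0.01. Most genes that rose had been close to absent: 153 of the 547 were listed at 0 at 2 hpf, 260 were under 0.1 RPKM and 423 under 1 RPKM. The median of the 547 was 4.85 RPKM at 4 hpf and 0.13 RPKM at 2 hpf. Of them 228 rose by at least 2 log2 and 67 by at least 4. Together they made up 1.68% of the summed RPKM of mutants at 4 hpf and 0.25% at 2 hpf; in controls the same genes made up 3.70% at 4 hpf and 0.38% at 2 hpf. The 45 genes that fell were, by contrast, mostly well represented in the egg's RNA, with a median of 5.67 RPKM at 4 hpf and 15.6 RPKM at 2 hpf, and 0 of them fell by 2 log2. The values are relative to the RNA of the library, so a change in total polyadenylated RNA between the times would not show, and in whole embryos fewer cells of a type and less RNA per cell cannot be told apart. A longer or shorter poly(A) tail cannot be told apart from a change in the amount of an RNA either.

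**Figure D1:**
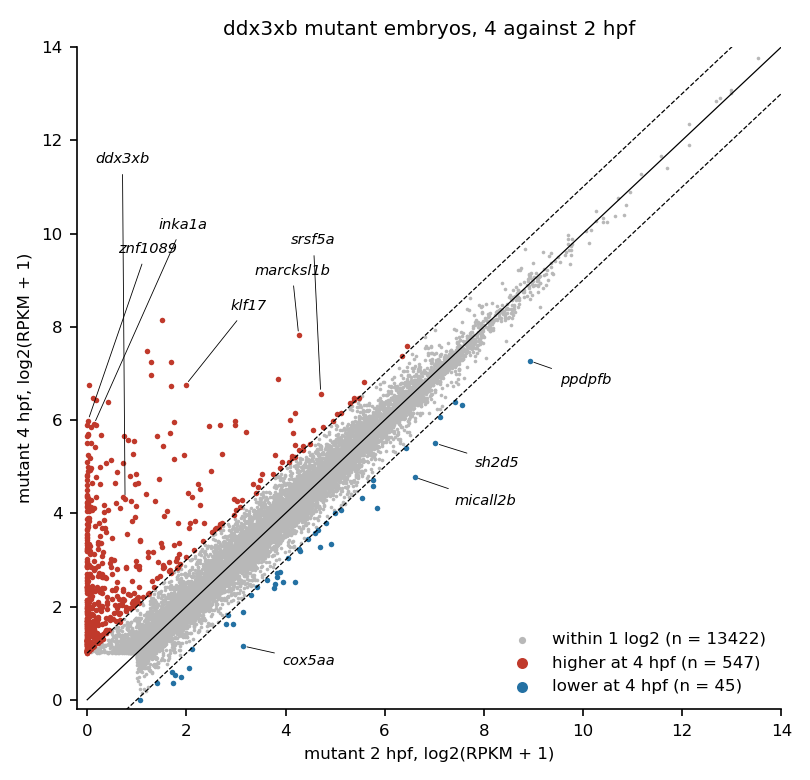
Each point is 1 of 14014 genes, with log2(RPKM + 1) of mutant embryos at 4 hpf on the vertical axis and at 2 hpf on the horizontal axis; dashed lines mark a difference of 1 log2. The 547 genes that rose (red) crowd along the left edge, where the 2 hpf value is near 0, and the 45 that fell (blue) lie close to the lower dashed line.

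Among genes with a gene name and at least 5 RPKM, the largest rise was that of znf1089, a zinc finger gene, at 62.2 RPKM at 4 hpf and 0.01 RPKM at 2 hpf (log2 difference 5.97). inka1a was at 58.9 and 0.10 RPKM (5.77) and nnr at 58.5 and 0.13 RPKM (5.72). aplnrb, an apelin receptor that guides mesendodermal cell movement, was at 50.5 RPKM at 4 hpf and 0.02 RPKM at 2 hpf. All these genes were higher in controls at 4 hpf, where znf1089 was at 136, inka1a at 213, nnr at 181 and aplnrb at 121 RPKM.

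Further genes among the 20 largest rises have known places in the early embryo. grhl3, a grainyhead-like factor of surface epithelium, was at 44.4 RPKM at 4 hpf and 0.06 RPKM at 2 hpf. klf17, a Krüppel-like factor of the outer layer and the later hatching gland, was at 107 and 2.96 RPKM, and in controls at 119 and 0.50 RPKM. It was the gene of the 20 whose mutant level at 4 hpf came nearest to the control level, with a log2 difference of -0.15 between mutants and controls. sox19a, a SoxB1 gene of the prospective neural plate, was at 35.1 RPKM at 4 hpf and 0.05 RPKM at 2 hpf in mutants. her5, a hairy-related repressor, was at 49.7 and 0.68 RPKM, and irx7, an Iroquois homeobox gene, at 46.3 and 0.77 RPKM. LFNG, which encodes the Notch-modifying glycosyltransferase lunatic fringe, was at 33.0 and 0.66 RPKM.

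The other genes among the 20 were a mixed group. sult6b1, a sulfotransferase gene, was listed at 0 at 2 hpf and stood at 49.2 RPKM at 4 hpf. isg15, which encodes a ubiquitin-like modifier, was also listed at 0 at 2 hpf and stood at 33.5 RPKM at 4 hpf, and vgll4l at 23.3 RPKM after 0. marcksl1a, of the MARCKS family of actin-linked membrane proteins, was at 37.3 RPKM at 4 hpf and 0.0046 RPKM at 2 hpf. The scaffold gene akap12b, the mitochondrial carrier gene slc25a55a, the apolipoprotein gene apoeb, the immediate early gene IER5, lrwd1 and drll.3 completed the set. apoeb and vgll4l were furthest below their control levels: apoeb stood at 34.1 RPKM in mutants at 4 hpf and 144 RPKM in controls at 4 hpf, and vgll4l at 23.3 RPKM in mutants and 110 RPKM in controls.

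**Figure D2:**
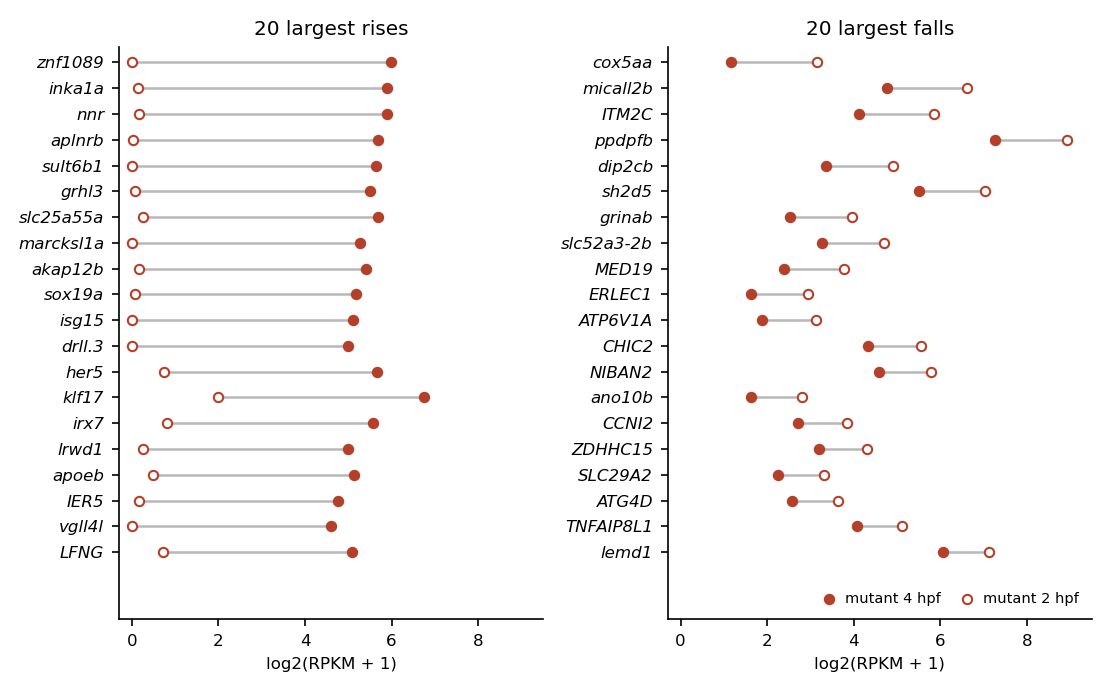
Filled points show mutant embryos at 4 hpf and open points mutant embryos at 2 hpf, as log2(RPKM + 1), for the 20 named genes with the largest rises (left) and the 20 with the largest falls (right). The rises start near 0 for nearly all genes, while the falls run between levels that are both well above 0 for most genes, such as ppdpfb at 153 RPKM at 4 hpf and 487 RPKM at 2 hpf.

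Most members of a list of early zygotic genes, the first to be read from the zebrafish genome, rose. The list was chosen with earlier results of these data known. It also holds genes named above for their large rises, such as inka1a, nnr, aplnrb and klf17. Its count is thus a description and not an independent result. Of 27 symbols 21 were matched to an ID, and 18 of these 21 rose, against 3.9% of all genes taken in. The median difference over the 21 was 4.29 in mutants and 6.00 in controls, where 20 of 21 rose. mxtx2, the homeobox regulator of the yolk syncytial layer, was at 28.6 RPKM at 4 hpf and 0.51 RPKM at 2 hpf in mutants, and the T-box mesoderm gene tbx16 at 8.91 RPKM after being listed at 0. The zinc finger gene blf was at 58.5 and 6.85 RPKM, and polr3gla, which encodes an RNA polymerase III subunit, at 9.31 and 0.22 RPKM. Over the 18 genes that rose the mutant level at 4 hpf was below the control level by at least 1 log2 in 14. The 3 that did not rise in mutants were mxtx1, at 0.91 RPKM at 4 hpf and 0 at 2 hpf in mutants and 13.2 RPKM in controls at 4 hpf, OSR1, at 0.66 and 0.11 RPKM, and FOXD3, listed at 0 at both times.

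Some genes of the outer layer and of the axis organizer rose. Of 13 matched enveloping layer genes, 7 had at least 1 RPKM in mutants at 4 or 2 hpf. Of the 13, 5 rose in mutants, against 3.9% of all genes taken in, and 8 in controls, against 9.85%. The median over the 13 was 0.12 in mutants and 1.35 in controls. Besides grhl3 and klf17 these were krt18a.1, a keratin gene at 19.4 RPKM at 4 hpf and 0.13 RPKM at 2 hpf, cldne, a claudin gene of cell junctions at 13.8 and 0.02 RPKM, and krt4, a keratin gene at 3.98 and 0.20 RPKM. Of these, grhl3, klf17, cldne and krt4 are also in the early zygotic list, so the counts overlap. That list also shares members such as aplnra, aplnrb, irx7, DUSP6, tbx16 and mxtx2 with lists given below. krt8 stood at 3.84 RPKM at 4 hpf and 3.46 RPKM at 2 hpf in mutants, where controls had 27.7 and 1.14 RPKM. Of 11 matched dorsal organizer genes 7 rose in each genotype, with a median over the 11 of 2.35 in mutants and 2.91 in controls. The BMP antagonist gene chrd was at 4.28 RPKM at 4 hpf and 0.04 RPKM at 2 hpf in mutants, GSC, the homeobox gene goosecoid, at 6.96 and 0.45 RPKM, and noto, a homeobox gene of the notochord, at 7.77 and 0.03 RPKM. admp, a BMP-like ligand gene of the dorsal side, was at 10.1 RPKM at 4 hpf and listed at 0 at 2 hpf, and dharma, a homeobox gene under maternal Wnt control, was at 7.06 and 0.39 RPKM. dkk1b, which encodes a secreted Wnt inhibitor, was at 6.81 and 0.11 RPKM.

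The counts in the signalling lists stand beside the shares over all genes with at least 1 RPKM. These were 3.9% that rose in mutants and 9.85% in controls. Of 9 matched Nodal pathway genes 3 rose: the ligand gene ndr1 (6.05 RPKM at 4 hpf and 0.72 RPKM at 2 hpf) and the feedback inhibitor genes lft1 (4.24 and 0.26 RPKM) and lft2 (5.23 and 0.23 RPKM). The maternal ligand gene gdf3 was at 273 RPKM at both times, the co-receptor gene tdgf1 at 105 and 87.0 RPKM and the transducer gene SMAD2 at 58.4 and 68.2 RPKM. The list of 21 BMP pathway and ventral symbols had 12 matched IDs, of which 3 rose in mutants and 5 in controls. Those in mutants were GATA3, at 15.5 RPKM at 4 hpf and 0.03 RPKM at 2 hpf, the BMP target ID1, at 35.0 and 2.35 RPKM, and TFAP2A, at 9.42 and 0.16 RPKM. An ID named BMP2, given under other observations, rose too, but that name did not match the list's symbol bmp2b. The ligand gene bmp7a was at 0.64 RPKM at 4 hpf and 0.22 RPKM at 2 hpf in mutants, and at 11.6 and 0.39 RPKM in controls.

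The remaining signalling lists gave 1 to 3 genes that rose in mutants each. Of 8 matched Fgf pathway genes 1 rose in mutants and 4 in controls. It was DUSP6, a phosphatase that dampens Fgf signalling through ERK, at 17.8 RPKM at 4 hpf and 0.01 RPKM at 2 hpf. SPRY2 and SPRY4, also Fgf feedback inhibitors, were at 2.57 and 1.65 RPKM in mutants at 4 hpf and at 1.29 and 0.69 RPKM in mutants at 2 hpf. Of 12 Wnt pathway genes 2 rose, dkk1b and wnt11f2, a ligand gene of the non-canonical pathway that steers convergence movements (27.0 RPKM at 4 hpf and 0.82 RPKM at 2 hpf). Of 11 Notch and hairy-related genes her5 rose alone in mutants. Of 4 matched apelin genes 3 rose: aplnrb, aplnra (1.38 RPKM after 0) and apela, which encodes the ligand Elabela (6.41 and 0.02 RPKM). HAS2, the hyaluronan synthase gene, was the 1 of 8 matched genes in the adhesion and migration list to rise, at 5.47 RPKM after 0. IDs named CXCR4, given under other observations, rose too, but that name did not match the list's symbols cxcr4a and cxcr4b.

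Over all genes with at least 1 RPKM in the groups compared, 3.9% rose in mutants and 9.85% in controls. Of 9 mesodermal T-box genes and targets 2 rose in mutants, tbx16 and noto. Of 4 matched endoderm genes 1 rose in mutants, foxa3, at 1.80 RPKM at 4 hpf and listed at 0 at 2 hpf. mixl1, a homeobox target of Nodal, was at 1.94 RPKM at 4 hpf and 0.75 RPKM at 2 hpf in mutants, and at 5.81 and 0.37 RPKM in controls. Of 10 matched neuroectoderm genes 4 rose in mutants and 6 in controls. These were sox19a, irx7, SOX3 (42.6 RPKM at 4 hpf and 1.88 RPKM at 2 hpf) and CYP26A1, which encodes a retinoic acid-degrading enzyme (36.8 and 12.7 RPKM). Of 8 matched genes of the yolk syncytial layer, which lies between embryo and yolk, mxtx2 rose alone in mutants, and 3 rose in controls.

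Of 10 matched immediate early and Myc genes 6 rose in each genotype, with a median over the 10 of 1.53 in mutants and 2.92 in controls. The share that rose over all genes with at least 1 RPKM was 3.9% in mutants and 9.85% in controls. mych was at 57.6 RPKM at 4 hpf and 4.52 RPKM at 2 hpf in mutants, klf2a at 24.2 and 1.04 RPKM, klf2b at 9.79 and 1.09 RPKM and MYCN at 3.45 and 0.42 RPKM. HSPB1, a small heat shock protein gene, was at 23.9 RPKM at 4 hpf and 3.72 RPKM at 2 hpf in mutants, and at 102 and 0.24 RPKM in controls. It and atf4b were the 2 genes of 15 in the heat shock and unfolded protein response list that rose in mutants.

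The activators of the genome changed little. nanog was at 806 RPKM at 4 hpf and 862 RPKM at 2 hpf in mutants, and pou5f3 at 296 and 364 RPKM. sox19b, the maternal SoxB1 gene, was at 341 RPKM at 4 hpf and 409 RPKM at 2 hpf in mutants, a difference of -0.26, and at 160 and 402 RPKM in controls, a difference of -1.33. SOX3 was the 1 of 6 matched activator genes that rose in mutants.

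**Figure D3:**
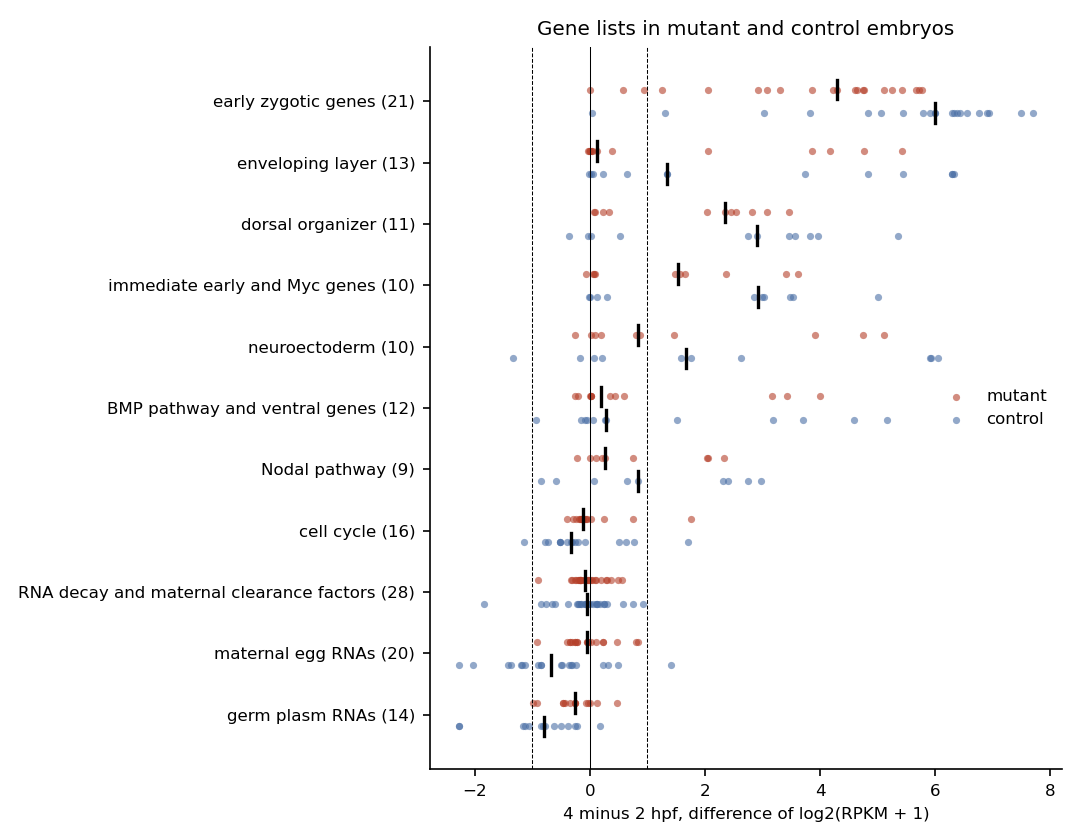
Each point is 1 matched gene ID of a list (number in brackets), with the difference of log2(RPKM + 1) at 4 minus 2 hpf on the horizontal axis, for mutant embryos (red, upper row of a pair) and control embryos (blue, lower row); black bars are medians over the matched IDs and dashed lines mark 1 log2. The early zygotic, organizer and immediate early lists lie to the right in both genotypes, with mutant medians of 4.29, 2.35 and 1.53, and the egg and germ plasm lists lie nearer to 0 in mutants than in controls.

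Of 20 matched maternal egg RNAs 0 fell and 0 rose in mutants. Since 0.321% of all genes fell in mutants and 3.18% in controls, a count of 0 in mutants does not set this list apart. Its median difference was -0.05 in mutants and -0.68 in controls, where 7 fell and 1 rose. cldng, a claudin gene, stood at 781 RPKM at 4 hpf and 806 RPKM at 2 hpf in mutants, and at 445 and 1193 RPKM in controls. buc, the organizer of germ plasm, was at 246 RPKM at 4 hpf and 251 RPKM at 2 hpf in mutants and at 138 and 301 RPKM in controls. buc2l was at 75.0 and 94.9 RPKM in mutants and at 31.5 and 132 RPKM in controls. BTG4, which recruits the deadenylase complex to maternal RNA, was at 262 and 257 RPKM in mutants and at 200 and 362 RPKM in controls. cldnd stood at 740 RPKM at 4 hpf and 865 RPKM at 2 hpf in mutants, against 852 and 2197 RPKM in controls, so its mutant level was already lower at 2 hpf. The same held for the list. The median level over the 19 with at least 1 RPKM was 51.6 RPKM in mutants and 79.5 RPKM in controls at 2 hpf. At 4 hpf it was 50.9 RPKM in mutants and 38.1 RPKM in controls.

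Of 14 matched RNAs of the germ plasm, from which germ cells form, 0 fell in mutants, against 0.321% of all genes, and 5 in controls, against 3.18%; 12 of the 14 lay below 0 in mutants, with a median of -0.26 against -0.80 in controls. TDRD6, a tudor domain gene, came nearest to a fall in mutants, at 16.0 RPKM at 4 hpf and 32.6 RPKM at 2 hpf (-0.98), and stood at 5.34 and 29.6 RPKM in controls. It passed the threshold in mutants with a pseudocount of 0.1 (-1.02), trimmed-mean rescaling (-1.04) and quantile normalization (-1.03). DAZL, which encodes a germline translational regulator, was at 20.2 RPKM at 4 hpf and 39.0 RPKM at 2 hpf in mutants (-0.91), and at 20.5 and 103 RPKM in controls (-2.28). The median level over the 14 was 39.8 RPKM in mutants and 49.6 RPKM in controls at 2 hpf. At 4 hpf it was 31.5 RPKM in mutants and 26.7 RPKM in controls. DDX4, the germ cell helicase Vasa, was at 129 RPKM at both times in mutants. The lists of egg and germ plasm RNAs share buc, tdrd7a, ca15b and DAZL. Of 28 matched deadenylation, decapping and other RNA decay genes 0 rose and 0 fell in mutants, against 3.9% and 0.321% of all genes. Counts of 0 thus do not set this list apart. Its median was -0.09 in mutants, and CNOT7, a deadenylase subunit gene, was lowest at 15.9 RPKM at 4 hpf and 30.4 RPKM at 2 hpf.

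Of the genes that fell in mutants, cox5aa alone belonged to any of the 37 lists. micall2b, a MICAL-like gene, was at 26.4 RPKM at 4 hpf and 96.2 RPKM at 2 hpf (-1.83), ITM2C at 16.4 and 56.7 RPKM and ppdpfb at 153 and 487 RPKM. sh2d5 was at 44.3 RPKM at 4 hpf and 129 RPKM at 2 hpf in mutants, and at 14.6 and 168 RPKM in controls. MED19, a Mediator subunit gene, was at 4.27 and 12.7 RPKM and CCNI2, of the cyclin I family, at 5.55 and 13.2 RPKM. The remaining genes of the 20 largest falls lay between cox5aa at -1.99 and lemd1 at -1.05. By 6 hpf 19 of the 45 had fallen by a further log2 or more and 1 had risen, counts that became 9 and 1 when the 2 groups were rescaled by a trimmed mean. The share over all genes from 4 to 6 hpf is not given here. ITM2C, MED19, NIBAN2 and ATP6V1A each stand on 2 IDs, of which 1 is meant in each case.

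Housekeeping gene families mostly stayed within 1 log2, as did most of all genes taken in, of which 3.9% rose and 0.321% fell in mutants. Small counts therefore do not by themselves set a family apart. Of 70 matched cytosolic ribosomal protein genes 0 rose and 0 fell in mutants, with a median of 0.10, where controls had 5 that rose and a median of 0.49. In levels, the median over the 69 of them with at least 1 RPKM stood at 194 RPKM in mutants at 4 hpf and 180 RPKM at 2 hpf, and at 131 and 86.1 RPKM in controls. Of 65 mitochondrial ribosomal protein genes 4 rose in mutants: MRPS22, MRPL11, MRPL49 and MRPL47, by 1.03 to 1.31 log2. MRPL49 and MRPL47 fell short of the threshold with trimmed-mean rescaling (0.97 and 0.96), quantile normalization (0.99 and 0.96) and a pseudocount of 5 (0.88 and 0.81). EIF2S2, a subunit gene of initiation factor eIF2, was the 1 of 61 translation initiation genes to rise, at 112 RPKM at 4 hpf and 46.6 RPKM at 2 hpf. srsf5a, a splicing factor gene, was the 1 of 42 spliceosome and SR protein genes, at 93.9 and 25.2 RPKM, and its level in controls was 215 and 28.2 RPKM. WEE1, a kinase that holds back mitosis, was the 1 of 16 cell cycle genes, at 8.64 and 1.85 RPKM, and MCM3 and 1 of the 2 IDs named MCM6 were the 2 of 14 replication genes. ddx3xb was the 1 of 44 DEAD-box and DEAH-box helicase genes to rise in mutants. In the proteasome list 2 of 52 rose, PSMA2 (43.8 and 21.4 RPKM) and PSMB8 (listed at 0 at 2 hpf), and in the polymerase list 1 of 65, polr3gla. Nuclear pore genes, histone and DNA methylation enzymes, amino acid transporters and mitochondrially encoded genes had 0 that rose and 0 that fell in mutants. The nuclear respiratory chain list of 103 had 1 of each, ndufab1b and cox5aa.

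Of 167 matched zinc finger genes named znf, 125 had at least 1 RPKM in mutants at 4 or 2 hpf. Of the 167, 12 rose in mutants, against 3.9% of all genes taken in, and 29 in controls, against 9.85%. Besides znf1089 they included znf1050, at 19.1 RPKM at 4 hpf and 0.01 RPKM at 2 hpf in mutants and at 16.3 and 0.01 RPKM in controls, and znf1127, at 8.37 RPKM after 0 in mutants and at 66.7 and 0.02 RPKM in controls. The mutant level at 4 hpf was thus near the control level for znf1050 and far below it for znf1127.

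Of the 547 genes that rose, 242 had a gene name, 64 a clone name and 241 (44.1%) no symbol, where 21.8% of all genes taken in had no symbol. The largest rises of all were among the unnamed: ENSDARG00000093944 was at 107 RPKM at 4 hpf and 0.03 RPKM at 2 hpf in mutants, and at 97.1 RPKM and 0 in controls. Genes without a symbol lay closer to their control level at 4 hpf, with a median log2 difference of -0.68 between mutants and controls, against -1.11 for genes with a gene name. They also rose less in controls, with a median of 2.40 against 3.13 for genes with a gene name. By 6 hpf 18.7% of the genes without a symbol and 7.44% of those with a gene name were lower by at least 1 log2 than at 4 hpf. For the 547 as a whole, 257 rose by a further log2 or more from 4 to 6 hpf and 72 fell, or 287 and 51 with trimmed-mean rescaling. These counts from 4 to 6 hpf have no share over all genes beside them. Of the risers 181 could be placed by symbol among the protein-coding genes of the RefSeq assembly GRCz12tu, and 3 pairs were direct neighbours there: lratb.1 and lratb.2, her11 and her5, and drll.3 and drll.2.

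The same interval in control embryos shows how much of the usual change the mutant made. Over 15225 genes with at least 1 RPKM in any of the 4 groups, 1499 (9.85%) rose and 484 (3.18%) fell in controls. Of the 547 genes that rose in mutants 493 (90.1%) also rose in controls, and these were 32.9% of the 1499. Of the 45 that fell in mutants 28 (62.2%) also fell in controls, and these were 5.79% of the 484. The mutant and control comparisons share no table. The 493 genes that rose in both had a median difference of 1.86 in mutants and 3.01 in controls, and in 441 of them the mutant difference was the smaller. Their median level at 4 hpf was 5.33 RPKM in mutants and 12.1 RPKM in controls, with a median mutant level per gene of 45.6% of the control level. Counted by level, 158 genes were switched on in mutants, from under 1 RPKM at 2 hpf to at least 5 RPKM at 4 hpf, and 341 in controls, with 136 in both (86.1% of the mutant and 39.9% of the control genes). Of the 341, 152 stood between 1 and 5 RPKM in mutants at 4 hpf and 40 under 1 RPKM.

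**Figure D4:**
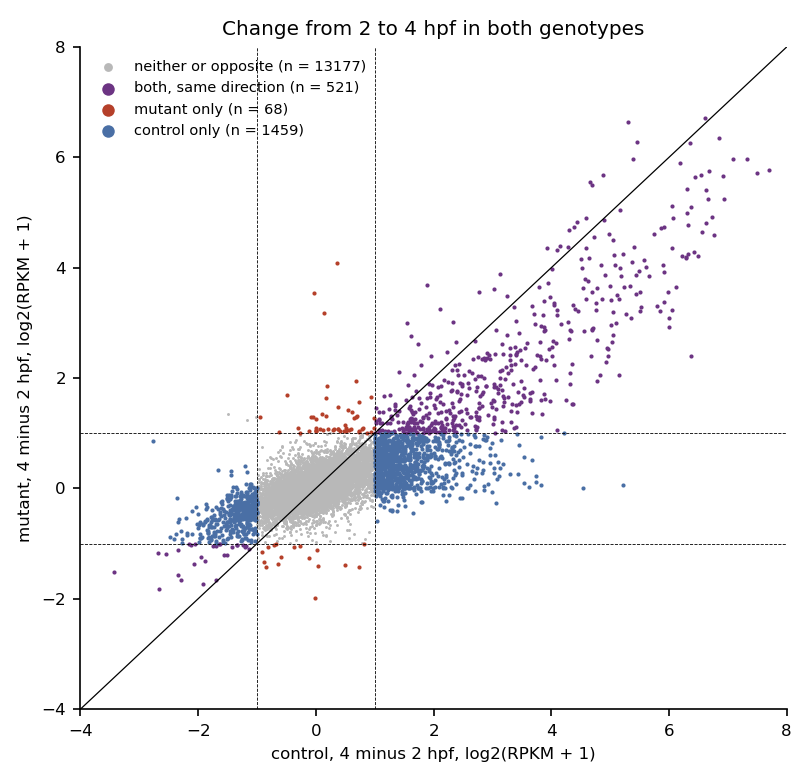
Each point is 1 of 15225 genes, with the 4 minus 2 hpf difference of log2(RPKM + 1) in mutant embryos on the vertical axis and in control embryos on the horizontal axis; dashed lines mark 1 log2 and the diagonal marks equal change. Most genes that rose in both genotypes lie below the diagonal, with medians of 1.86 in mutants and 3.01 in controls, and the large group past 1 log2 only in controls lies between the horizontal dashed lines.

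The share of control risers that also rose in mutants went with the size of the control rise. A fixed threshold of 1 log2 builds in part of such a gradient. A small control rise passes it in mutants only if nearly all of the rise is kept, a large one even if much is lost. Of 974 genes that rose by 1 to 2 log2 in controls 12.2% rose in mutants, of 252 that rose by 2 to 3 log2 126 rose in mutants, of those that rose by 3 to 4 log2 82.1%, of 68 that rose by 4 to 5 log2 97.1%, and of 82 that rose by 5 log2 or more 98.8%. The median difference in mutants was 0.51 in the lowest of these classes and 4.21 in the highest. The median difference between mutants and controls at 4 hpf was -0.68 in the lowest and -1.56 in the highest. The lowest class holds 974 of the 1499 control risers and so weighs most in their share of 32.9%.

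The 1006 genes that rose in controls alone still moved upward in mutants for the most part, with 903 of them above 0 and a median of 0.45 in mutants and 1.35 in controls. mxtx1 had the largest control rise among them, followed by krt8 and bmp7a, whose values are given above. ctsll, a cathepsin L-like protease gene, stood at 0.18 RPKM in mutants at 4 hpf and was listed at 0 at 2 hpf, and stood at 7.59 RPKM in controls at 4 hpf after 0. The amino acid transporter gene SLC7A8 was at 0.25 and 0.10 RPKM in mutants and at 8.24 and 0.09 RPKM in controls, and the histone variant gene h2ax at 5.87 and 5.50 RPKM in mutants and at 26.9 and 2.67 RPKM in controls. RND1, drl, dnaaf19 and znf1135 completed the 10 largest, with mutant differences of 0.46 to 0.82 and control differences of 2.95 to 2.99. By 6 hpf 583 of the 1006 (58.0%) stood at least 1 log2 above their 2 hpf level in mutants, or 67.1% with trimmed-mean rescaling. No share of all genes with such a rise by 6 hpf is given here as a background. At 6 hpf ctsll was at 244 RPKM, SLC7A8 at 196 RPKM and bmp7a at 48.4 RPKM in mutants.

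The 484 genes that fell in controls had smaller differences in mutants, which the class definition fixes for the 456 that fell in controls alone. The 456 include the genes given under results flagged for a closer look, which rose in mutants. Over the 484, the median mutant level at 4 hpf was 70.15% of that at 2 hpf, against 37.0% in controls. Of the 28 that fell in both genotypes, where either order was possible, 28 had the smaller difference in mutants. The direction was kept in 465 of the 484, with a median of -0.47 in mutants and -1.26 in controls. Among the 456 that fell in controls alone, SSH2, a cofilin phosphatase gene, was at 30.3 RPKM at 4 hpf and 57.8 RPKM at 2 hpf in mutants, and at 10.6 and 60.8 RPKM in controls. RNASEH1, a ribonuclease H gene, was at 45.6 and 78.5 RPKM in mutants and at 15.7 and 81.3 RPKM in controls, and rasef2 at 91.4 and 140 RPKM in mutants and at 31.7 and 165 RPKM in controls. AKR1B1, DAZL, TDRD6, MFSD12, sgk1, MLLT1 and castor1 were the others of the 10 largest. By 6 hpf 391 of the 456 (85.7%) stood at least 1 log2 below their 2 hpf level in mutants, or 75.4% with trimmed-mean rescaling. The share of all genes that did so is not given here, so these values have no background beside them.

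**Figure D5:**
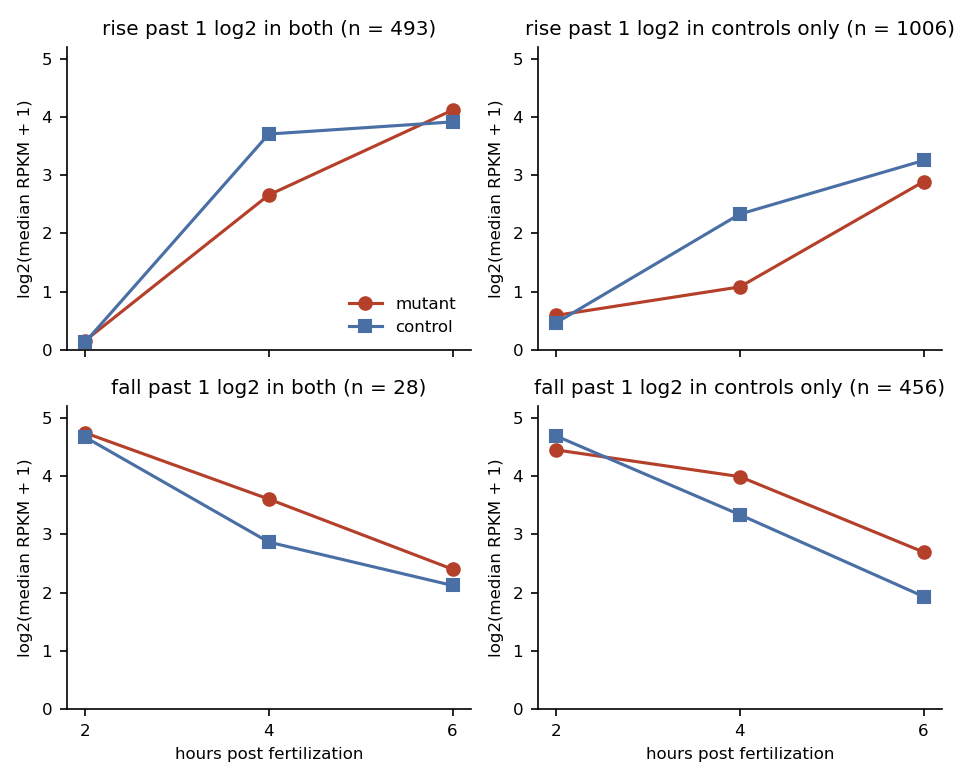
Lines join the medians, as log2(median RPKM + 1), of mutant embryos (red circles) and control embryos (blue squares) at 2, 4 and 6 hpf for 4 classes of genes defined by their change between 2 and 4 hpf. At 4 hpf the mutant median of the 1006 genes that rose in controls alone was 1.12 RPKM against 4.04 RPKM in controls, and that of the 456 genes that fell in controls alone was 14.9 RPKM against 9.09 RPKM; since the classes are defined by these values, only the 6 hpf points are independent of the choice.

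Few genes moved in mutants alone. Of the 54 that rose only there, ddx3xb moved most among those with a gene name and at least 5 RPKM. The 54 include the genes of opposite direction, given under results flagged for a closer look, which fell in controls. MRPS22 was at 27.7 RPKM at 4 hpf and 10.5 RPKM at 2 hpf in mutants, and at 17.3 and 10.3 RPKM in controls. SSR3, a subunit gene of the translocon-associated protein complex, was at 1.74 RPKM at 4 hpf and 0.11 RPKM at 2 hpf in mutants, where controls had 32.0 and 33.1 RPKM. BTF3L4 was at 30.6 and 13.8 RPKM in mutants and at 21.4 and 26.7 RPKM in controls, and ELOVL3, a fatty acid elongase gene, at 42.6 and 19.4 RPKM in mutants and at 65.9 and 45.8 RPKM in controls. PPP2R5D, malt3, MRPL49, MRPL47 and chchd6a completed the 10, the last 2 with control differences of 0.93 and 0.99 that lay just under the threshold. Of the 17 that fell in mutants alone, 7 had a gene name and at least 5 RPKM: cox5aa, slc52a3-2b, grinab, ERLEC1, ATP6V1A, ATG4D and MT1X. cox5aa, a cytochrome c oxidase subunit gene, was at 1.22 RPKM at 4 hpf and 7.83 RPKM at 2 hpf in mutants, and at 1.25 and 1.27 RPKM in controls. slc52a3-2b, of the riboflavin transporter family, was at 8.65 and 24.8 RPKM in mutants and at 1.34 and 0.41 RPKM in controls. Both genes thus stood far above their control level in mutants at 2 hpf.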

How the data were processed

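Whole zebrafish embryos were sampled at 2, 4 and 6 hpf in 2 genotypes, 2 samples each; RNA was taken with TRIzol, and, per the labels' protocols, poly(A) RNA selected with a Dynabeads kit went into KAPA Stranded mRNA-Seq libraries. HISAT2 2.0.5, SAMtools 1.9, Trimmomatic 0.36, cutadapt 1.13 and the build Zv9 are named per the submitters' processing notes, without roles. Which tool counted, on which annotation and whether by strand is not given in the sources used here, so antisense, overlapping and near-identical genes may share reads. The authors deposited RPKM values in 6 tables, 1 per group, with 1 value for each of 33737 Ensembl IDs; 21939 IDs were matched to a symbol. The planned test needed a value per replicate, so sizes of log2(RPKM + 1) differences are described (pseudocount 1, level minimum 1 RPKM, threshold 1), with Python 3.11.15, numpy 2.4.6, pandas 2.3.3 and numba 0.67.0. Fold changes of low genes are understated on this scale. Recovered depths ran from 37.8 to 73.0 M reads over the 12 libraries and hold up to a common factor. The recovery and the counting were tested on simulated data.

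Genes named are ddx3xb and ddx3xa, the 20 largest rises and falls with a gene name and at least 5 RPKM, the 10 largest of each class that moved in 1 genotype alone, and members of 37 gene lists; genes given under other rules are said to be so. The members and lists were chosen with earlier results of these data known. Symbols are printed as the name table gives them. Shares over all genes are over those with at least 1 RPKM, while counts in the lists are over all matched IDs. Symbols without a matched ID were not read. The Fgf list of 13 symbols had 8 matched IDs, the yolk syncytial list of 13 had 8 and the endoderm list of 9 had 4. Alternatives were the pseudocount, the level filter, the threshold, trimmed-mean rescaling (30% of ratios and 5% of levels trimmed at each end) and quantile normalization. One gene and a list tied to it are not reported here.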

Additional observations from a re-analysis of the deposited data

Results flagged for a closer look

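In 3 genes, each past 1 log2 in both genotypes, the change between 2 and 4 hpf had opposite directions, and the difference was not tested. si:dkey-93m18.3 was at 1.44 RPKM at 4 hpf and 0 at 2 hpf in mutants (log2 difference 1.29), and at 9.54 and 20.4 RPKM in controls (-1.02), so that the genotypes' differences lay 2.31 apart. ENSDARG00000083462 was at 3.90 and 0.92 RPKM in mutants (1.35) and at 0.80 and 4.10 RPKM in controls (-1.50), which lie 2.85 apart. ENSDARG00000088037 was at 4.85 and 1.47 RPKM in mutants (1.25) and at 1.09 and 3.71 RPKM in controls (-1.17), which lie 2.42 apart. All were low in mutants. Over recovered genes with 20 to 150 reads, replicate libraries of the mutant groups differed by a spread of about 0.95 to 1.01 log2. Whether these 3 genes lie in that range is not given here, and si:dkey-93m18.3, listed at 0 at 2 hpf, does not at that time.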

How the results depend on the processing

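No paired analysis was possible because the 2 samples of a group share 1 value per gene, which also means that no replicate could be left out. The count of genes that rose in mutants was 547. It stayed within 1.5 times of that with a pseudocount of 0.1 and with both rescalings (459 to 757). Without a filter and with the filter over 6 groups it was again 547, which was fixed in advance. A difference of 1 on this scale needs at least 1 RPKM in the higher group. The count was 202 with a pseudocount of 5, 272 with a minimum of 5 RPKM and 324 at a threshold of 1.5 log2, which by construction admit fewer genes. The count that fell, 45, became 127 with a pseudocount of 0.1, 12 with one of 5, 7 at 1.5 log2 and 71 with quantile normalization; the cause of the last was not tested. The shares of control risers and fallers that also moved in mutants ran from 32.9% to 47.6% and from 4.05% to 8.62%. Rescaling moved the median over all genes to -0.04 and quantile normalization to -0.06. Of 576 values of the 72 genes named by rule, 48 moved, 34 lay on the other side of 1 log2 and 0 reversed. A filter or the threshold cannot change a gene's own difference, so only the pseudocounts and rescalings bear on these values. A change of sign close to 0 was not counted as a reversal. With quantile normalization krt8 came to -0.02 in place of 0.12 and h2ax to -0.03 in place of 0.08. The difference of mxtx1, at 0.93, came to 3.34 with a pseudocount of 0.1. Of 246 values of the 31 list medians over genes with at least 1 RPKM, 14 moved, 8 lay on the other side and 0 reversed. Without a filter the enveloping layer median came to 0.12 in place of 3.87 and the BMP median to 0.19 in place of 1.59, and with a pseudocount of 5 the immediate early median to 0.58 in place of 1.61. List medians within 0.1 of 0 can take either sign with scaling, as those of the replication, polymerase and nuclear pore lists did. Depth limits the low genes: replicate spread is known for genes with 20 to 150 reads only.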

Other observations

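Some gene groups were noticed after their values were seen, and are given as values. Over all genes taken in, 3.9% rose in mutants. The growth arrest genes GADD45A, GADD45B and GADD45G stand on 6 IDs, of which 4 rose in mutants: the first GADD45B ID was at 61.2 RPKM at 4 hpf and 2.35 RPKM at 2 hpf, the other at 10.5 and 0.20 RPKM, GADD45A at 9.28 RPKM after 0 and 1 of the 2 IDs named GADD45G at 12.9 and 0.18 RPKM. The last stood above its control level of 6.69 RPKM at 4 hpf. Both IDs named CXCR4, a chemokine receptor of migrating cells, rose, 1 of them to 20.7 RPKM in mutants at 4 hpf, against 3.10 RPKM in mutants at 2 hpf, and 1 of the 2 named BMP2, a BMP ligand, was at 16.3 and 0.01 RPKM. BRD2, a bromodomain gene, was at 51.9 RPKM at 4 hpf and 16.7 RPKM at 2 hpf in mutants, and marcksl1b at 225 and 18.2 RPKM.

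Of 52 IDs named SNORA or SNORD, which are small nucleolar RNA genes, 13 rose and 1 fell in mutants, against 3.9% and 0.321% of all genes taken in. Only 15 of the 52 had at least 1 RPKM at either time, and the highest of these stood at 9.80 RPKM at 4 hpf. The gene named 5_8S_rRNA was at 191 RPKM at 4 hpf and 86.6 RPKM at 2 hpf in mutants, and at 493 and 74.4 RPKM in controls. The libraries were made from polyadenylated RNA, and overlapping genes may share reads. Whether the reads on the SNORA, SNORD and 5_8S_rRNA IDs stem from the named RNAs was not tested. Of 9 IDs named znfl 6 rose in mutants, and of 3 named drll 3 rose.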
